A study of Phaseolus vulgaris with 4 samples.

Results

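Among transcripts that were abundant in both regions of the globular-stage bean embryo, 141 genes were moderately higher in the embryo proper. They are 141 of the 20961 genes listed in at least one library, and 14.9% of the 944 genes that reached 50 RPKM or more in all 4 libraries. RPKM is the number of reads per kilobase of gene length, scaled to library size. A gene belonged to the group if its value was at least 50 RPKM in every library, and if the lower of its embryo proper values was at least 2 times and under 8 times the higher of its suspensor values. The region difference therefore chose the genes, and its size is given below as a description, with no claim drawn from it.

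The samples were laser-captured embryo proper and suspensor of Phaseolus vulgaris, the common bean, from cultivar G19833, with 2 biological replicates of each region. Both regions came from seeds 1.6 to 2.0 mm long, fixed 6 days after pollination, on plants that 2 weeks of short days had brought to flower. Each region was excised from 6 micron paraffin sections by laser capture microdissection, and 5 ng of total RNA was amplified before sequencing. The labels do not say how many embryos or plants went into a library, so p-values reflect only how far these libraries differ, which may be partly technical, and both regions can stem from shared plants.

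The embryo proper is the part of the young embryo that forms the seedling, with its cotyledons, shoot and root tips. The suspensor is the stalk that anchors it in the seed and passes nutrients and hormones to it, and it is lost before the seed matures. In Phaseolus the suspensor is large and its cells carry giant polytene chromosomes. In the related scarlet runner bean, Phaseolus coccineus, it is known as a site of gibberellin synthesis.

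Gene IDs stand alone in the files, without names or products. None of the 20961 IDs (0) was found among the 34165 entries of RefSeq for assembly P. vulgaris v2.0. The genes are therefore described by their values, by the chromosome number in their ID and by the gene length that the values imply, and only the genes with the highest level and the largest difference are given by ID. No function, sequence or coordinate is given, and the regions were not checked against marker genes. In dissected tissue, fewer cells that express a gene and less of its RNA per cell cannot be told apart.

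The libraries were deep. Totals of 60900034 and 73408617 reads in embryo proper and of 56813099 and 55135334 reads in suspensor could be worked back from the values. Every gene of the group rested on at least 4684 reads in each embryo proper library and at least 1344 in each suspensor library. The median gene had 43410 and 39650 reads in embryo proper replicates 1 and 2, against 9236 and 10823 in suspensor replicates 1 and 2.

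The 141 genes took up a large part of the embryo proper transcriptome. They made up 21.6% and 18.1% of the summed RPKM in embryo proper replicates 1 and 2, against 5.06% and 5.91% in suspensor replicates 1 and 2. The mean shares were 19.8% ± 2.46 in embryo proper and 5.49% ± 0.600 in suspensor (SD, n = 2 each), a 3.61-fold ratio. With 2 libraries a region no exact permutation test can pass a threshold of 0.05, and the genes were chosen on this contrast. In reads, which weight long genes more, the shares were 17.3% and 14.2% in embryo proper and 3.73% and 4.601% in suspensor.

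Levels in the group spread widely. In embryo proper replicate 1 the values ran from 134.6 to 9459.7 RPKM with a median of 671.8, and in replicate 2 from 113.2 to 11277 with a median of 536.3. In suspensor replicate 1 they ran from 50.8 to 2067.6 RPKM with a median of 162.1, and in replicate 2 from 51.3 to 3339.1 with a median of 174.5. The embryo proper mean was 1000 RPKM or more for 41 of the genes, and the suspensor mean for 4.

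**Figure D1:**
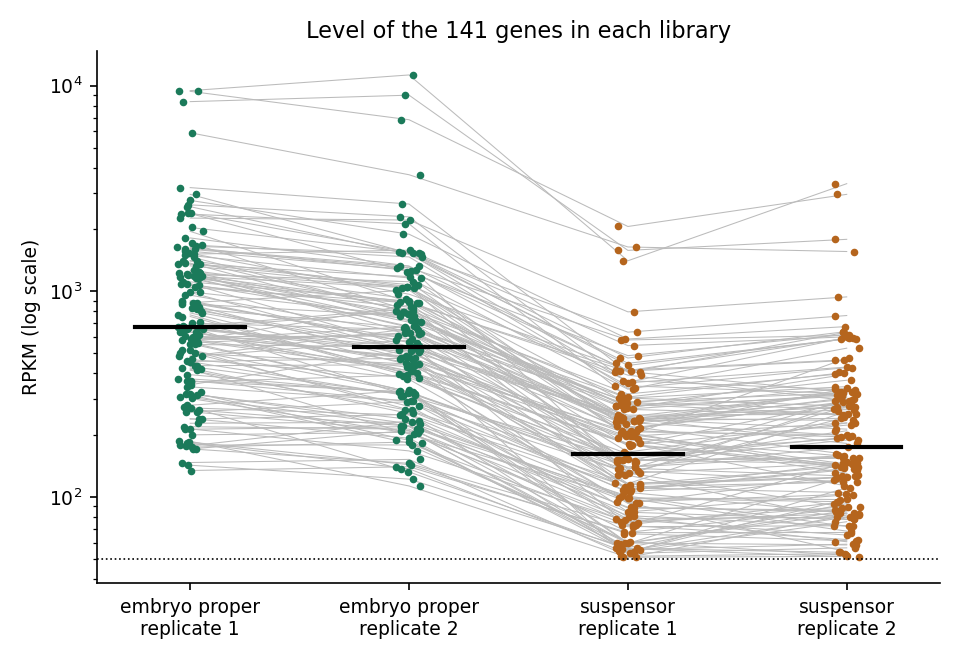
RPKM of the 141 genes in each library on a log scale, with 1 point per gene, a grey line joining the values of a gene, a black bar at the median and a dotted line at 50 RPKM. The medians are 671.8 and 536.3 RPKM in the embryo proper libraries, against 162.1 and 174.5 RPKM in the suspensor libraries.

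The group held many of the most abundant transcripts of the embryo proper. Of the 100 genes with the highest mean RPKM in embryo proper, 47 were in the group, and of the 100 highest in suspensor, 7 were. Of the 10 highest, 4 were in the group in embryo proper and 0 in suspensor. The median rank of the genes among all genes of a library was 167 and 177 in embryo proper replicates 1 and 2, against 524 and 521 in suspensor replicates 1 and 2. The rule chose genes with higher embryo proper values, so nothing is read from these contrasts between the regions. Of the 84 abundant genes with an embryo proper mean of 1000 RPKM or more, 48.8% were in the group, against 3.94% of the 279 with a mean from 100 to under 200 RPKM. The rule requires a high embryo proper value, so this gradient follows in part from the choice of genes. Ordered by suspensor level, the share was 12.9% of 311 genes from 50 to under 100 RPKM, 12.4% of 307 from 100 to under 200, 22.4% of 214 from 200 to under 500 and 13.4% of 112 at 500 RPKM or more.

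A few genes carried much of the summed level. The 3 highest held 19.9% of the group's summed RPKM in embryo proper, and the 10 highest 34.0%. This was not particular to the group. In the 803 other abundant genes the 3 and 10 highest held 15.4% and 25.4% in embryo proper. In the 42 genes that met the rule with the regions exchanged, they held 45.7% and 71.05% in suspensor. The sets differ in size.

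The highest gene was Phvul.005G055500, on chromosome 5 by its ID. It had 9459.7 and 11277 RPKM in embryo proper replicates 1 and 2, against 1408.6 and 3339.1 RPKM in suspensor replicates 1 and 2. It had rank 2 among all genes in embryo proper replicate 1 and rank 3 in replicate 2. The regions did not overlap, as the rule requires of every gene in the group. The suspensor replicates of this gene lay 2.37-fold apart, farther than those of all other genes of the group but 1. Its mean was 10368 ± 1285 RPKM in embryo proper, against 2373.8 ± 1365.1 RPKM in suspensor (SD, n = 2 each), a 4.37-fold ratio, with a log2 difference of 2.25 ± 0.51 (SE; limma, adjusted p = 0.0361). The call was lost with median-ratio scaling (adjusted p = 0.0723), without the trend (0.0951), with no filter (0.257) and on leaving out any 1 of the libraries (0.111 to 0.341). Its log2 difference was 1.63 without suspensor replicate 1, 2.87 without suspensor replicate 2 and 3.11 with quantile normalization.

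The second-highest gene, on chromosome 11, was more even between replicates. It had 8365.4 and 8992.9 RPKM in the embryo proper libraries, against 1582.1 and 1790.7 RPKM in the suspensor libraries. Its 5.15-fold ratio of means came with a log2 difference of 2.36 ± 0.40 (SE; limma, adjusted p = 0.0154), a call that was lost without the trend (adjusted p = 0.0552), with no filter (0.173) and on leaving out any 1 of the libraries (0.0627 to 0.265). The third-highest, on chromosome 5, had 9387.0 and 6831.1 RPKM in embryo proper, against 2067.6 and 2963.3 RPKM in suspensor, a 3.22-fold ratio. Its log2 difference was 1.69 ± 0.43 (SE; limma, adjusted p = 0.0489). The call was lost with pseudocounts of 0.1 (adjusted p = 0.0612) and 5 (0.0560), median-ratio scaling (0.0991), no trend (0.135) and no filter (0.313). It was kept with quantile normalization, the mean filter of 5 RPKM, the replicate block and limma-voom. Its recovered length of 228 bp was among the shortest in the group. The fourth-highest, on chromosome 4, had 5902.9 and 3689.9 RPKM in embryo proper, against 1644.0 and 1562.2 RPKM in suspensor. Its embryo proper replicates were far apart, and its log2 difference of 1.54 did not pass the threshold (limma, adjusted p = 0.0560). It passed with quantile normalization (adjusted p = 0.0267), with a mean filter of 5 RPKM (0.0292), with the replicate block (0.04995) and in limma-voom (0.0226).

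The next 8 genes had means between 1975.8 and 2926.7 RPKM in embryo proper, and between 355.2 and 867.5 RPKM in suspensor. The most even of them between embryo proper replicates, on chromosome 1, had 2271.1 and 2222.1 RPKM there, against 795 and 940 RPKM in suspensor. Its 2.59-fold ratio was also the smallest of the 12 highest genes. The eighth-highest, on chromosome 3, had 2373.7 and 2128.4 RPKM in embryo proper, against 306.4 and 404 RPKM in suspensor, and its 6.34-fold ratio was the largest of the 12.

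**Figure D2:**
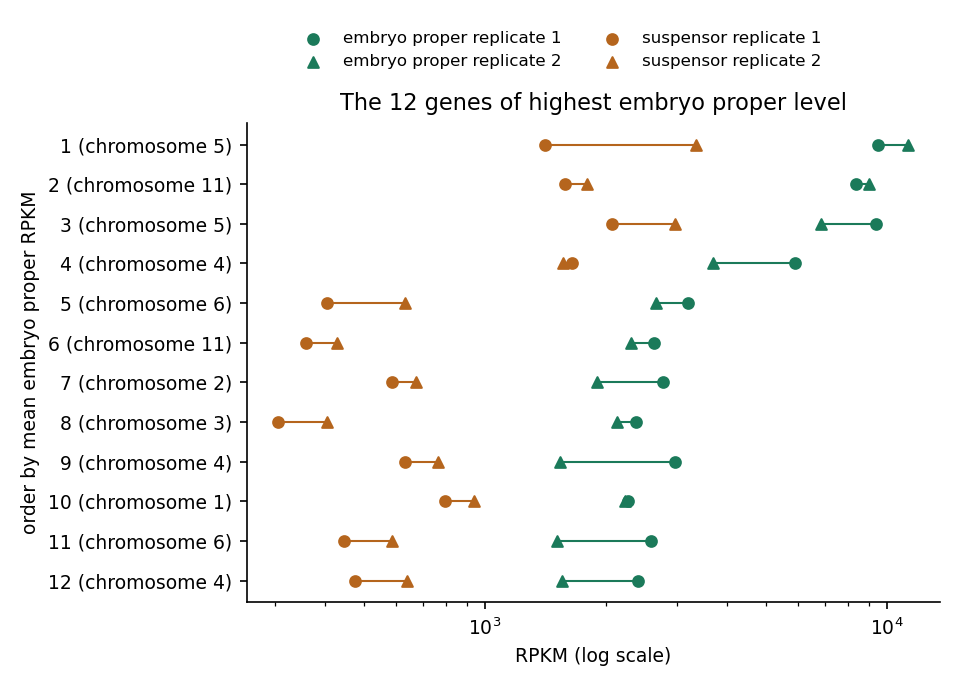
RPKM on a log scale of the 12 genes with the highest mean in embryo proper, ordered from the top and labelled by the chromosome number in the ID, with embryo proper in green, suspensor in brown, circles for replicate 1 and triangles for replicate 2. The first 4 genes lie at or above 3689.9 RPKM in embryo proper and at or above 1408.6 RPKM in suspensor, apart from the other 8.

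The differences were mostly close to the lower bound. The ratio of the lower embryo proper to the higher suspensor value was between 2 and 2.5 for 70 of the genes, from 2.5 to under 3 for 37, from 3 to under 4 for 23 and from 4 to under 6 for 11. None lay between 6 and 8. As a ratio of region means, which is larger, the median was 3.34, with quartiles of 2.89 and 4.13.

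Phvul.010G006400, on chromosome 10 by its ID, had the largest ratio, 5.94, and also the lowest value in any library. It had 835.5 and 485.6 RPKM in embryo proper replicates 1 and 2, against 50.8 and 81.8 RPKM in suspensor replicates 1 and 2. Its mean was 660.5 ± 247.4 RPKM in embryo proper, against 66.3 ± 21.9 RPKM in suspensor (SD, n = 2 each), a 9.96-fold ratio. Its log2 difference was 3.28 ± 0.45 (SE; limma, adjusted p = 0.00834). The call was lost with no filter (adjusted p = 0.109), without suspensor replicate 1 (0.161) and without suspensor replicate 2 (0.118). The gene with the next largest ratio, 5.42, on chromosome 2, had 1614.3 and 1324.9 RPKM in embryo proper, against 131 and 244.5 RPKM in suspensor. In both genes suspensor replicate 1 was well below replicate 2.

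At the upper bound the nearest gene outside the group had a ratio of 9.20, with 1520.1 and 1125.2 RPKM in embryo proper against 87.3 and 122.3 RPKM in suspensor. In all, 5 abundant genes exceeded 8. At the lower bound the smallest ratio in the group was 2.002, in a gene with 134.6 and 140.4 RPKM in embryo proper against 67.1 and 67.2 RPKM in suspensor. Just outside, a gene with 653.2 and 728.6 RPKM in embryo proper, against 147.8 and 326.6 RPKM in suspensor fell short of 2 by less than 0.001, and the next had a ratio of 1.996. At the level of 50 RPKM, the nearest gene left out for its level alone had 476.1 and 274.6 RPKM in embryo proper against 49.3 and 94.0 RPKM in suspensor. A further 122 abundant genes had ratios from 1.5 to under 2, so no gap separated the group from genes with smaller differences.

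**Figure D3:**
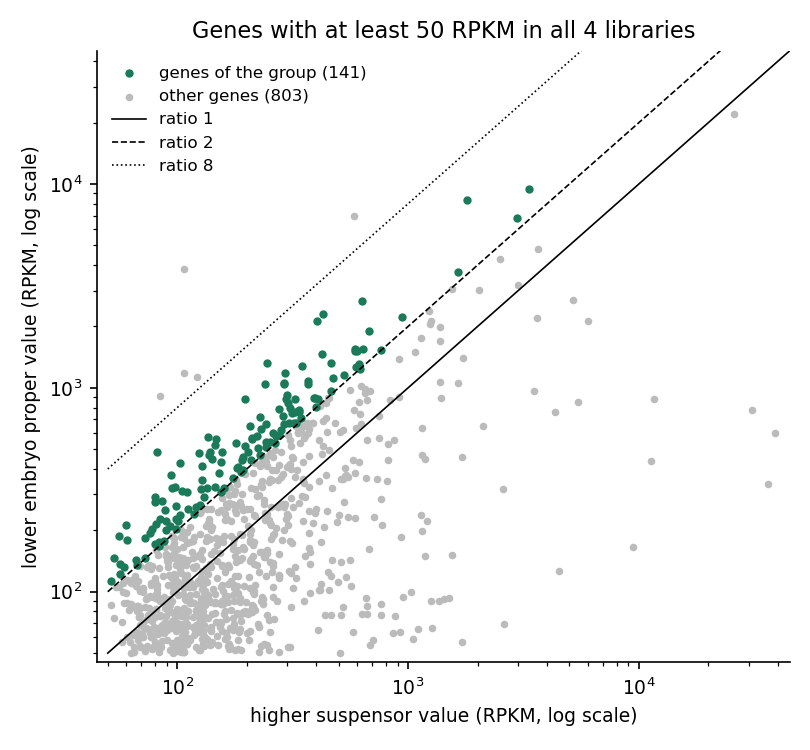
The lower embryo proper value against the higher suspensor value of the 944 abundant genes, in RPKM on log scales, with lines at ratios of 1, 2 and 8. The 141 genes lie between the dashed and the dotted line and reach a ratio of 5.94, and 5 genes lie above the dotted line.

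The group was larger than its mirror image. Among the same 944 genes, 42 met the rule with the regions exchanged. Those 42 genes held 1.403% ± 0.414 of the summed RPKM in embryo proper and 7.18% ± 0.799 in suspensor (SD, n = 2 each). Both counts depend on how the libraries are scaled. With quantile normalization, which gives all libraries the same distribution, they were 84 and 62, and with median-ratio scaling 114 and 41. Of the 141 genes, 82 met the rule under quantile normalization and 107 under median-ratio scaling. The median log2 difference of all 944 abundant genes was 0.34 as deposited and 0.22 with quantile normalization, whereas that of all tested genes was 0.00 and −0.01.

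**Figure D4:**
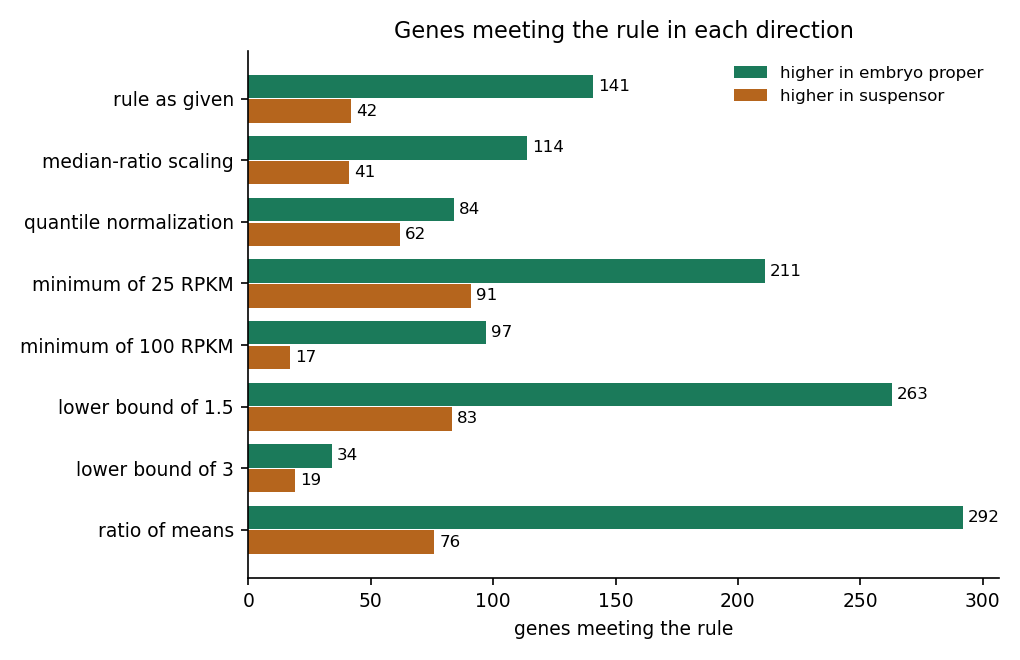
Number of genes that met the rule in each direction, as given and with 1 choice changed at a time. Genes higher in embryo proper outnumber those higher in suspensor in each row, by 141 to 42 as given and by 84 to 62 with quantile normalization.

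The regions were compared across all genes with limma on log2(RPKM + 1), with calls made where the Benjamini-Hochberg adjusted p lay under 0.05. Of the 141 genes, 94 were called higher in embryo proper, beside 5.55% of the 15169 genes tested, and 47 did not pass. The same contrast chose the genes, so nothing is read from this share. Both embryo proper values exceeded both suspensor values for all 141 genes by the rule, and for 28.1% of the genes tested. The median log2 difference of the group was 1.72 with a median standard error of 0.40, beside 0.00 for all genes tested.

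The 94 genes called had log2 differences between 1.44 and 3.28, and the 47 others between 1.02 and 1.79, as follows in part from the threshold. For the 94 called, the embryo proper libraries lay a median of 1.33-fold apart and the suspensor libraries 1.296-fold, and for the 47 not called 1.23-fold and 1.12-fold. These values come from the contrast that chose the genes and are a description.

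The number called depended on the setting. With suspensor replicate 1 or 2 left out, all calls in limma were lost, in the group and over all genes tested. The median log2 difference of the group was then 1.615 and 1.758, beside 0.189 and −0.186 for all genes tested. Without embryo proper replicate 1 the number called was 12, beside 2.59% of all genes tested, and without replicate 2 it was 68, beside 4.07%. Pseudocounts of 0.1 and 5 gave 103 and 71 genes, beside 6.61% and 3.76%. Median-ratio scaling gave 61, beside 4.94%, and quantile normalization 65, beside 5.76%. A mean filter of 5 RPKM gave 117, beside 7.15%, and no filter gave 0, beside 0%. The replicate number as a block gave 112, beside 6.82%, and a prior without the trend gave 4, beside 4.46%. Limma-voom on the recovered reads gave 99, beside 2.83%.

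Between replicates the median fold was 1.31 in the embryo proper and 1.23 in the suspensor, against 1.37 and 1.31 for the 803 other abundant genes. The values behind these folds are those that chose the genes, and no test was made. Which region had the larger spread depended on the scaling: on the log2 scale the group's median replicate difference was 0.390 in embryo proper and 0.301 in suspensor as deposited, and 0.357 and 0.415 with median-ratio scaling. A replicate fold of 2 or more was seen for 6 genes of the group in embryo proper and for 9 in suspensor. The largest in embryo proper was 2.21-fold, in a gene on chromosome 11 with 1957.5 RPKM in replicate 1 and 886.8 RPKM in replicate 2, against 391.5 and 294.4 RPKM in suspensor. The largest in suspensor was 2.39-fold, in a gene on chromosome 5 with 197.7 RPKM in replicate 1 and 473.4 RPKM in replicate 2, against 1210.4 and 1113.9 RPKM in embryo proper, and it exceeded the 2.35-fold ratio by which that gene met the rule. On the log2 scale, the levels of the 141 genes had a Pearson's r of 0.95 for embryo proper replicate 1 with 2 and of 0.94 for suspensor replicate 1 with 2, which describes genes that share these libraries.

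The replicates did not scatter evenly to both sides. Embryo proper replicate 1 exceeded replicate 2 for 112 of the 141 genes, or 79.4%, against 58.0% of the 803 other abundant genes. The median fold of replicate 1 over replicate 2 was 1.29 in the group and 1.099 in the others. In suspensor, replicate 2 exceeded replicate 1 for 93 genes, or 66.0%, against 50.4% of the others. In the 42 genes that met the rule with the regions exchanged, these shares were 45.2% in embryo proper and 57.1% in suspensor. The values compared are those that chose the genes, and no test was made. Embryo proper replicate 2 and suspensor replicate 2 together set the ratio of the rule for 73 of the 141 genes. The median ratio between single libraries was 4.17 for embryo proper replicate 1 over suspensor replicate 1, 3.80 for replicate 1 over suspensor replicate 2, 2.93 for embryo proper replicate 2 over suspensor replicate 1 and 2.75 for replicate 2 over suspensor replicate 2.

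Applying the rule to 3 libraries and reading the fourth gave the following counts. Without embryo proper replicate 1, 179 genes met the rule, and 141 of them, or 78.8%, also met it with that library. Without embryo proper replicate 2, 270 genes met it and 140 of them, or 51.9%, remained. For the other 130, replicate 2 was above 50 RPKM but brought the ratio under 2, and for 9 of these it lay below the higher suspensor value. Without suspensor replicate 1, 211 genes met the rule and 66.8% remained. Without suspensor replicate 2, 212 met it and 65.1% remained. When left out, embryo proper replicate 1 also lay below the higher suspensor value for 9 genes, at any level. The left-out suspensor replicates 1 and 2 lay above the lower embryo proper value for 2 and 4 genes, and under 50 RPKM for 22 and 12. The left-out library was of the same region and may share its material, so this is no independent repeat.

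Gene length cancels in the ratio of the rule, but not in its minimum of 50 RPKM, which all 944 abundant genes met. The recovered length had a median of 1010 bp, with quartiles of 764 and 1371 bp, in the group, and a median of 1201 bp, with quartiles of 834.5 and 1808.5 bp, in the 803 other abundant genes. Genes over 3000 bp were 2 of the 141, or 1.42%, and 48 of the others, or 5.98%. Of the abundant genes from 500 to under 750 bp, 19.4% were in the group, as were 19.2% of those from 750 to under 1000 bp and 17.2% of those from 1000 to under 1500 bp. The share was 8.55% from 1500 to under 2000 bp, 12.3% from 2000 to under 3000 bp, 4% at 3000 bp or more and 13.0% under 500 bp. Within the group, length went with neither the ratio of means (Spearman's rho 0.07) nor the embryo proper level (rho −0.10), as descriptions over 141 genes.

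The replicates also differed by length. Over all 944 abundant genes the median fold of embryo proper replicate 1 over replicate 2 was 1.349 from 500 to under 750 bp, 1.28 from 750 to under 1000 bp, 1.15 from 1000 to under 1500 bp, 1.02 from 1500 to under 2000 bp and 0.951 at 3000 bp or more. In suspensor the median fold of replicate 1 over replicate 2 was 0.891, 0.903, 0.966, 1.014 and 1.13 in the same length classes. The median ratio of embryo proper to suspensor means was 1.56, 1.79, 1.28, 1.12 and 1.02 in these classes. The classes left out were genes under 500 bp, at 1.27, 1.12 and 1.02 for the same 3 quantities, and genes from 2000 to under 3000 bp, at 0.989, 1.06 and 1.25. Within the group there was no steady order by length. Replicate 1 was the higher embryo proper library for 6 of 7 genes under 500 bp, 22 of 26 from 500 to under 750 bp, 31 of 35 from 750 to under 1000 bp and 31 of 43 from 1000 to under 1500 bp. It was the higher for 11 of 13 from 1500 to under 2000 bp, 10 of 15 from 2000 to under 3000 bp and 1 of 2 at 3000 bp or more. The group's median fold of replicate 1 over replicate 2 was highest from 1500 to under 2000 bp, at 1.72, against 1.28 from 500 to under 750 bp. The part of gene length in the region difference of the group was not tested.

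**Figure D5:**
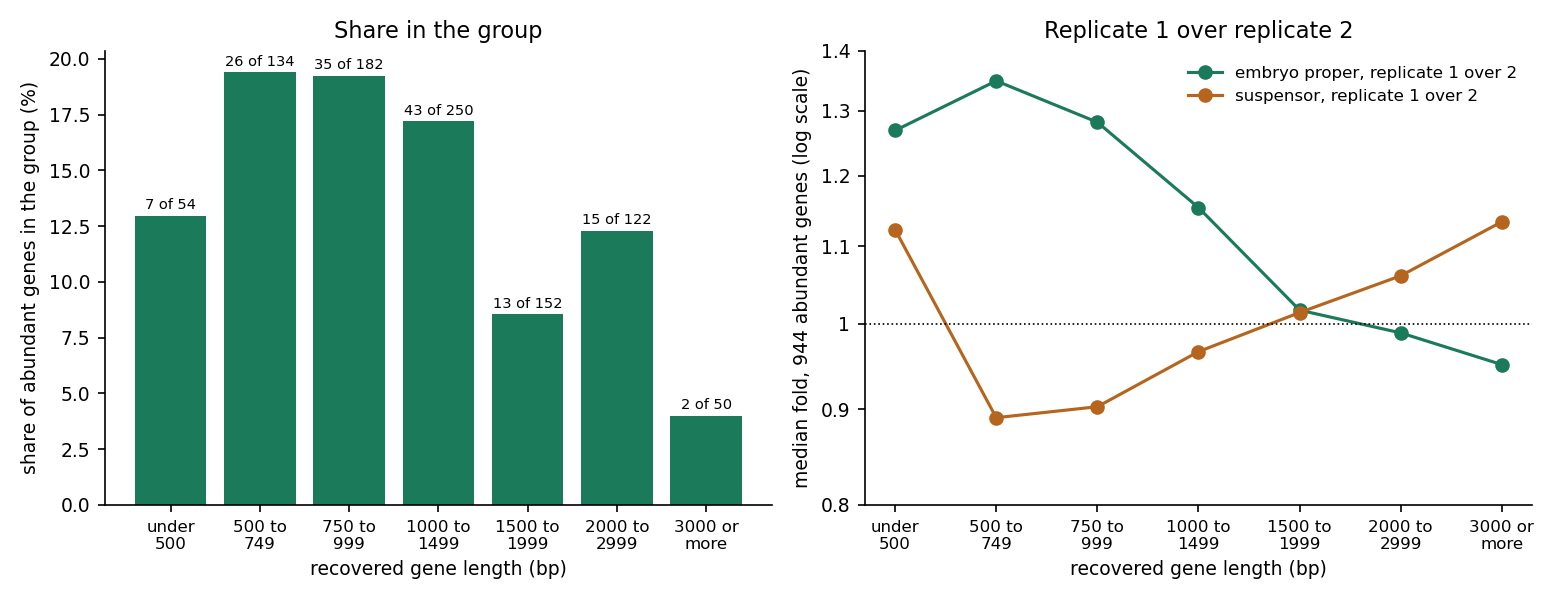
Left, the share of the abundant genes in each class of recovered gene length that belonged to the group, with the numbers above each bar. Right, the median fold of replicate 1 over replicate 2 in each region over all 944 abundant genes, on a log scale, which falls with length in embryo proper from 1.349 at 500 to under 750 bp to 0.951 at 3000 bp or more.

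The genes lay on all 11 chromosomes, by the number in their ID, and 2 were on unplaced sequence. Chromosome 1 held 21 of them, which is 20.6% of its abundant genes, and chromosome 10 held 4, or 7.41%. Chromosome 11 had 18.7% of its abundant genes in the group and chromosome 8 had 9.28%, beside 14.9% over all. These shares were not tested.

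In the order of the listed IDs, successive genes of the group on a chromosome were a median of 80 listed genes apart, and 3 pairs were next to each other, on chromosomes 7 and 11. Among the 944 abundant genes 55 pairs were next to each other. The counts come from sets of unlike size, so they cannot be compared directly, and no test was made. The pair on chromosome 7 had 482.6 and 580.2 RPKM in embryo proper against 138.2 and 126.5 RPKM in suspensor for the first gene, and 271.2 and 250.5 RPKM against 88.4 and 86.3 RPKM for the second. The first pair on chromosome 11 was uneven, with 142.8 and 122.2 RPKM in embryo proper against 56.3 and 53.8 RPKM in suspensor for one gene, and 2634.1 and 2302.7 RPKM against 359.1 and 428.6 RPKM for the other. Its lower gene had the lowest embryo proper mean of the group, and its ratio of the lower embryo proper to the higher suspensor value was 2.17, against 5.37 for its neighbour. In the other pair on chromosome 11, one gene had 518.2 and 322.7 RPKM in embryo proper against 73.4 and 95.0 RPKM in suspensor, and the other had 1355.4 and 1179.4 RPKM against 213.3 and 291.7 RPKM, with ratios of means of 4.99 and 5.02. The recovered lengths of no pair lay within 1.2 times of each other. How reads that match several genes were handled is not given in the sources used here, so values of near-identical or overlapping genes are uncertain.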

How the data were processed

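RNA of laser-captured embryo proper and suspensor was measured in 2 libraries per region. The authors deposited one table of RPKM values per library. Per the submitters' processing notes, the tools were Bowtie 0.12.7 and bedtools. Not given in the sources used here are the genome build, annotation, strand and treatment of reads matching several genes. A gene absent from a table was set to 0.

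The RPKM steps between low values gave library totals, and from these a gene length with whole reads was found for 100% of 20961 genes (tolerance 1e-05 reads plus rounding). The smallest whole length between 30 and 20000 bp was used, so lengths and reads are lower bounds where they share a factor. Reads carry no molecular identifiers and are not independent molecules. In a 1 kb gene, 3 reads, the limit that a count of 0 allows, are 0.0409 to 0.0544 RPKM, for counting error only.

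Embryo proper minus suspensor was fitted on log2(RPKM + 1) by limma 3.58.1 (R 4.3.3, prior with trend). The 15169 genes reaching 1 RPKM in 2 or more libraries were tested and their p-values adjusted by Benjamini-Hochberg. Log2 differences on this scale understate the change of low genes. The recovery and the fit were tested on simulated data. Replicate numbers 1 and 2 recur in both regions, but the labels tie them to no shared material. A replicate block was therefore fitted only as an alternative. Alternatives were other pseudocounts, filters, scalings and rule bounds, no trend, the replicate block, limma-voom on recovered reads, and leaving out each library.

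The rule, the lists and the rule for genes described singly were chosen with earlier results of these data known. Described singly are the 12 genes highest in embryo proper, those with the largest and smallest ratios, those at each bound, those with the largest replicate differences and those next to each other. The lists by product name could not be used, for lack of names.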

Additional observations from a re-analysis of the deposited data

How the results depend on the processing

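No gene of the group had a negative log2 difference in any of the 13 alternative fits. By the rule, every embryo proper value was at least 2 times every suspensor value. The sign was therefore fixed in the fits without rescaling. It was also fixed with median-ratio scaling, whose factors of 0.9144 to 1.078 are too close together to turn it. Nothing is read from the sign in these fits. Of the 141 genes, 94 were called, beside 5.55% of all genes tested. The same contrast chose the genes, so nothing is read from these counts. The number was 61 with median-ratio scaling, beside 4.94%, and 4 with no trend, beside 4.46%. When low values were kept unfiltered it was 0, beside 0% (limma). In that fit 138 of the 141 genes had an unadjusted p under 0.05, as did 4162 of all 20961 genes in either direction. Leaving out 1 library gave 0 to 68, where the lone library is assumed to vary like the other region. It was 103 and 71 with pseudocounts of 0.1 and 5, 65 with quantile normalization, 117 with a mean filter of 5 RPKM and 99 with limma-voom, 86 of these among the 94. The replicate block gave 112, including all 94. The deviations of libraries with the same number had a correlation of 0.07 across genes, which does not show that the numbers pair them.

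The median log2 difference of 1.72 became 1.42 with quantile normalization and lay between 1.503 and 1.97 without 1 of the libraries. The number of genes meeting the rule became 84 with quantile normalization, 292 with the ratio of region means, 263 and 34 with lower bounds of 1.5 and 3, and lay between 179 and 270 without 1 of the libraries. It was 211 and 97 with minima of 25 and 100 RPKM. The excess of the group's share of summed RPKM in embryo proper, 14.3 percentage points, was 12.01 without the 10 genes of highest mean, 22.8 over the 944 abundant genes alone and 12.6 to 16.1 without 1 of the libraries. The cause of these shifts was not tested. With median-ratio scaling the median replicate difference was 0.357 in embryo proper and 0.415 in suspensor, against 0.390 and 0.301 as deposited, so the order of the regions turned round. Of 442 values for 34 genes described singly, 299 kept both direction and status, whether called or not called. A further 122 kept direction but lost the call, 21 gained it and 0 changed direction. In the unchanged fit 23 of the 34 genes were called, so the 299 include values of genes not called there. Direction was fixed by the choice of genes in the fits without rescaling and with median-ratio scaling.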
